A study of Homo sapiens with 12 samples.

Results

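The replication-dependent histone genes lie in tight clusters on human chromosomes 6 and 1, and 3 intervals holding such clusters were examined for stretches of RNA shielded by protein in the human embryonic kidney cell line HEK293T. The intervals, on build hg19, were chr6:26017000-26285800 (the large chromosome 6 cluster), chr6:27774000-27862000 (the small chromosome 6 cluster) and chr1:149783000-149860000 (the chromosome 1 cluster), together 433803 bp. A protected site was counted as a cluster site where its midpoint lay in an interval, on either strand, and 707 of the 513381 sites in 6 lists met this rule. The rule used positions only and no measured value, although the intervals were chosen with earlier results of these data known. The sites nearest to the borders lay between 55 and 3747 nt inside them and between 960 and 102723 nt outside.

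The sites came from protein interaction profile sequencing. Cells were fixed with 1% formaldehyde for 10 minutes and the reaction was stopped with 125 mM glycine. Lysates, freed of DNA, were digested with a ribonuclease before protein was removed (footprints) or once SDS and proteinase K had stripped it off (digestion controls). Single-stranded RNA was cut with RNase ONE, called ssRNase here, and base-paired RNA with RNase V1, called dsRNase. The 12 libraries comprised 3 ssRNase footprints, 3 ssRNase digestion controls, 3 dsRNase footprints and 3 dsRNase digestion controls, all from fixed and otherwise untreated cells. Each list holds the sites of a footprint against the control of the same nuclease and number, called at a false discovery rate of 5%, so that each nuclease has 3 lists. The labels do not state whether replicates were separate cultures, and p-values therefore measure the spread between lists, which may be technical.

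Histone mRNAs are made in S phase, when new DNA is packed into nucleosomes, and encode the core histones H2A, H2B, H3 and H4 and the linker histone H1. They are short, have no introns and, unlike other mRNAs, end without a poly(A) tail in a conserved stem-loop that is bound by the stem-loop binding protein SLBP. SLBP takes part in the processing of the 3' end, in export, in translation and in the rapid decay of these mRNAs at the end of S phase. In the gene order of RefSeq (assembly GRCh38.p14, used for names and neighbours only), 59 protein-coding histone genes lie in the 3 runs that carry these clusters. The run of the large chromosome 6 cluster, H1-1 to H4C8, has 32 of them. The run of the small one, H2BC13 to H2BC17, has 16, and the chromosome 1 run, H2BC18 to H2AC21, has 11. By family there were 6 H1, 13 H2A, 14 H2B, 13 H3 and 13 H4 genes. Sites were not assigned to genes, since the reference at hand belongs to another build than the site lists.

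Sequence features of these RNAs bear on how short protected stretches can be read, and their sequences are shown for that reason. The first is the 3' stem-loop, given here for 4 genes, 1 of each core histone family, from GENCODE release 29 (GRCh38), 5' to 3'. Capitals mark the stem-loop.
HIST1H2AE: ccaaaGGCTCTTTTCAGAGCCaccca
HIST1H2BD: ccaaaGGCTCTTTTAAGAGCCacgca
HIST1H3E: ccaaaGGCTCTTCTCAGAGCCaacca
HIST1H4B: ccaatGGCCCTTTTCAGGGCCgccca
The letters GGNNNTTNTNANNGCC occurred anywhere in an annotated transcript of 28 of the 67 HIST1 and HIST2 genes with a protein-coding transcript, and in the last 100 bases in 11 of them. By transcript, 32 of 78 histone transcripts (41.0%) held the letters anywhere, against 1.03% of all 83119 protein-coding transcripts of at least 100 bases. In the last 100 bases they were found in 11 histone transcripts (14.1%), against 0.0397% of all. The commonest form, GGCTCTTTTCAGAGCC, was found in 15 genes. On the opposite strand, 0.0205% of all transcripts held the letters in the last 100 bases. A match describes the sequence and is not evidence of protein binding. Where an annotated transcript ends relative to the 3' end of the mRNA was not checked. A gene without a match, or with one far from the transcript end, may therefore still end in a stem-loop.

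The second feature is repetition. The stretch below, 43 bases long, is the one shared by the most histone genes in the same transcript set. It occurs in 7 H2B genes of chromosome 6 and is shown without capitals. The transcript set holds 67 HIST1 and HIST2 genes taken by name, more than the 59 genes of the runs described above. Some of its genes, and some of these 7, may therefore lie outside the intervals examined.
H2B stretch: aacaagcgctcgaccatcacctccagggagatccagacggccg
Taken over all 67 genes, most were nevertheless distinct at this length, but many of those on chromosome 1 were not. The median share of a gene's stretches of 43 bases that also occurred in another histone gene was 1.63%, with 7.60% for H2A genes and 4.72% for H2B genes. The transcripts of 5 genes, HIST1H4K, HIST2H2AA3, HIST2H3A, HIST2H3C and HIST2H4A, were wholly shared with another gene. Among the other HIST2 genes, on chromosome 1, the share was 97.1% for HIST2H2AA4, 80.5% for HIST2H3D and 57.2% for HIST2H3PS2. It was 49.6% for HIST2H4B and 35.3% for HIST2H2AC, against 7.85% for HIST2H2BE, 7.25% for HIST2H2BF and 5.41% for HIST2H2AB. Reads from shared stretches cannot be placed by sequence alone, and the authors' treatment of reads that map to several places is unknown here.

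In the ssRNase lists the clusters held 171, 49 and 115 sites, against 112, 147 and 113 in the dsRNase lists. These sites covered 10478, 2157 and 5663 nt in the ssRNase lists, against 5673, 6510 and 6198 nt in the dsRNase lists. The dsRNase values lay close together and within the range of the ssRNase values. The number of sites averaged 112 ± 61.1 in ssRNase lists against 124.0 ± 19.9 in dsRNase lists (SD, n = 3 each), and a two-sided exact permutation test gave p = 0.9. Without ssRNase replicate 2, the shortest ssRNase list, the ratio of the means moved to 1.15, against 0.901 with all lists. With every list thinned to 21561 sites, averaged over 20 random draws, it moved to 0.160 (exact permutation p = 0.1). The covered bases averaged 6099 ± 4178 nt with ssRNase and 6127 ± 423 nt with dsRNase, again with an exact permutation p of 0.9.

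The lists themselves differed greatly in length. The ssRNase lists held 209922, 57481 and 172079 sites, against 23925, 28413 and 21561 in the dsRNase lists. Taken as a share of all site bases of the list, the clusters held 1028, 740 and 699 bases per 1000000 with ssRNase, against 6889, 6649 and 7758 with dsRNase. Every ssRNase list therefore lay far below every dsRNase list. The means were 822 ± 179 and 7099 ± 583 bases per 1000000 (SD, n = 3 each), so that the share was 8.63-fold higher in the dsRNase lists. The exact permutation p was 0.1, the smallest that 3 lists against 3 allow. A share corrects for the length of a list and not for read depth, which is unknown because the lists hold no read counts.

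**Figure D1:**
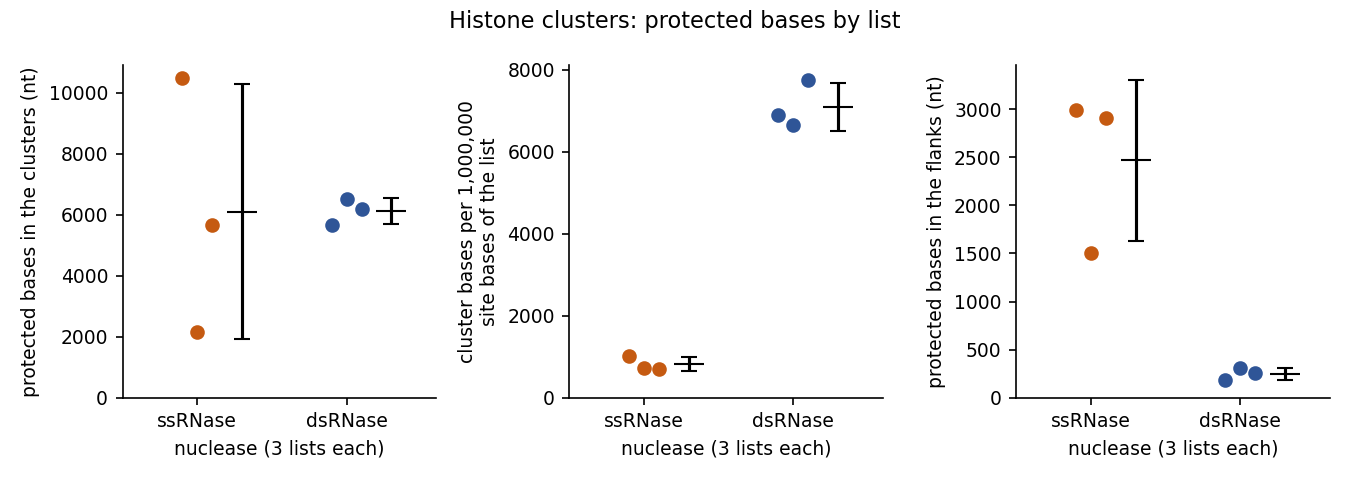
Protected bases in the 3 histone clusters (left, nt), the same per 1000000 site bases of the list (middle) and protected bases in flanks beside the clusters (right, nt), for the 3 ssRNase and 3 dsRNase lists. Points are lists and black marks the mean ± SD; cluster bases overlap between nucleases, while the share is lower and the flank bases are higher in every ssRNase list.

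The same held in each cluster. In the large chromosome 6 cluster the share was 476, 321 and 290 bases per 1000000 with ssRNase, against 3512, 3489 and 3940 with dsRNase. In the small chromosome 6 cluster it was 232, 179 and 171 with ssRNase, against 1103, 1072 and 1098 with dsRNase. In the chromosome 1 cluster it was 320, 240 and 237 with ssRNase, against 2275, 2088 and 2720 with dsRNase. The ratio of dsRNase to ssRNase means was 10.1 in the large and 5.62 in the small chromosome 6 cluster and 8.89 on chromosome 1, each with an exact permutation p of 0.1.

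The clusters held more protected bases than their surroundings in every list. Flanks of the same length as each cluster on both of its sides were used for comparison. With ssRNase the clusters held 242, 49.7 and 131 protected bases per 10000 bp, and the flanks held 34.4, 17.4 and 33.5. With dsRNase the clusters held 131, 150 and 143, and the flanks 2.13, 3.53 and 2.95. The clusters were higher in 6 of 6 lists, by 125 bases per 10000 bp on average (exact sign-flip permutation p = 0.031, the smallest 6 lists allow, and 0.0781 after adjustment over 5 comparisons of the clusters with the rest). The nucleases differed mostly in the flanks, where the mean was 28.4 ± 9.59 with ssRNase and 2.87 ± 0.701 with dsRNase, an exact permutation p of 0.1.

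In every list a larger share of cluster sites than of other sites recurred in another list of the same nuclease by at least 1 nt. With ssRNase, 59.6%, 98.0% and 87.8% of cluster sites overlapped a site of another ssRNase list, against 52.8%, 89.9% and 62.2% of the remaining sites. With dsRNase, 88.4%, 80.3% and 87.6% of cluster sites overlapped a site of another dsRNase list, against 51.3%, 47.7% and 54.7% of the rest. Recurrence was higher in the clusters in 6 of 6 lists, by 23.8 percentage points on average (exact sign-flip permutation p = 0.031, adjusted p = 0.0781). This did not pass 0.05 after adjustment. At an overlap of at least 50% of the site the mean was 19.97 and ssRNase replicate 1 turned, with 42.7% of cluster sites against 48.7% of the rest, which left 5 of 6 lists.

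Overlap with the other nuclease differed between the lists. Among ssRNase cluster sites, 63.2%, 79.6% and 66.1% overlapped a dsRNase site, against 15.1%, 23.1% and 15.4% of ssRNase sites elsewhere. Among dsRNase cluster sites, 76.8%, 74.1% and 80.5% overlapped an ssRNase site, against 73.9%, 75.5% and 76.5% elsewhere. The excess averaged 51.8 percentage points for ssRNase and 1.85 for dsRNase, 26.8 over all 6 lists (higher in 5 of 6 lists, exact sign-flip permutation p = 0.0625, adjusted p = 0.104). Where an overlap of at least 50% of the site was required, the mean was 14.2, with 38.3 for ssRNase and -10.0 for dsRNase, and all 3 dsRNase lists were then lower in the clusters.

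The median length of cluster sites was 51, 41 and 43 nt with ssRNase and 39.5, 36 and 43 nt with dsRNase. The means of 45.0 ± 5.29 and 39.5 ± 3.50 nt did not differ beyond the spread of lists (exact permutation p = 0.3). Against other sites of the same list they were 4.08 nt longer on average, in 5 of 6 lists (exact sign-flip permutation, adjusted p = 0.156). The longest cluster site of each list was 179, 99 and 159 nt with ssRNase and 352, 254 and 240 nt with dsRNase, and in all 3 dsRNase lists it lay on the minus strand of chromosome 1. The site of 352 nt lay at chr1:149812378-149812729.

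Sites were also ranked within their list by the authors' score, whose scale is unknown. The median cluster site stood at percentile 63.3, 25.9 and 63.9 of its ssRNase list, and at 71.5, 68.2 and 79.2 of its dsRNase list. The low value belonged to ssRNase replicate 2. Over the 6 lists the median was 12.0 percentile points above the middle, higher in 5 of 6 lists (exact sign-flip permutation, adjusted p = 0.188). The ssRNase lists alone gave 0.998 and the dsRNase lists alone 22.9 points, and without ssRNase replicate 2 the mean over lists was 19.2 points.

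Sites of opposite strands did not meet within a list. No cluster site faced a site on the opposite strand in its own list, in any of the 6 lists. Elsewhere 7.16%, 11.7% and 8.69% of ssRNase sites and 0.512%, 0.693% and 0.984% of dsRNase sites did so. When lists were pooled, 7 of 707 cluster sites faced one of another list. The minus strand carried 59.9%, 74.8% and 57.6% of the cluster bases with ssRNase and 80.5%, 69.6% and 72.6% with dsRNase. The means of 64.1% ± 9.33 and 74.2% ± 5.62 had an exact permutation p of 0.3.

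Counted base by base and by strand, 15519 positions of the clusters were protected in at least 1 list. Of these, 11751 were protected with ssRNase, 9634 with dsRNase and 5866 with both. The shared positions made up 49.9% of the ssRNase positions and 60.9% of the dsRNase positions. Protection in all 3 lists was found at 1405 positions with ssRNase and at 3090 with dsRNase, and 563 positions were protected in all 6 lists. All 3 ssRNase lists and no dsRNase list protected 429 positions, against 1080 protected in all 3 dsRNase lists and in no ssRNase list.

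Sites came in compact groups. Joining the sites of all lists on a strand where they lay at most 1000 nt apart gave 57 groups, 26 on the plus and 31 on the minus strand. Both nucleases had sites in 37 of them, ssRNase alone in 19 and dsRNase alone in 1. All 6 lists had a site in 22 groups, at least 5 lists in 31 and a single list in 12. These 31 groups held 31874 of the 36679 cluster bases (86.9%), and their median span was 440 nt (284 to 2136 nt), with 26 of them between 280 and 800 nt. By the same joining, 6.89% of the 114919 groups elsewhere had sites in at least 5 lists, and the median span of those was 1683 nt. The span of 280 to 800 nt was found in 83.9% of such groups in the clusters and in 13.2% elsewhere.

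**Figure D2:**
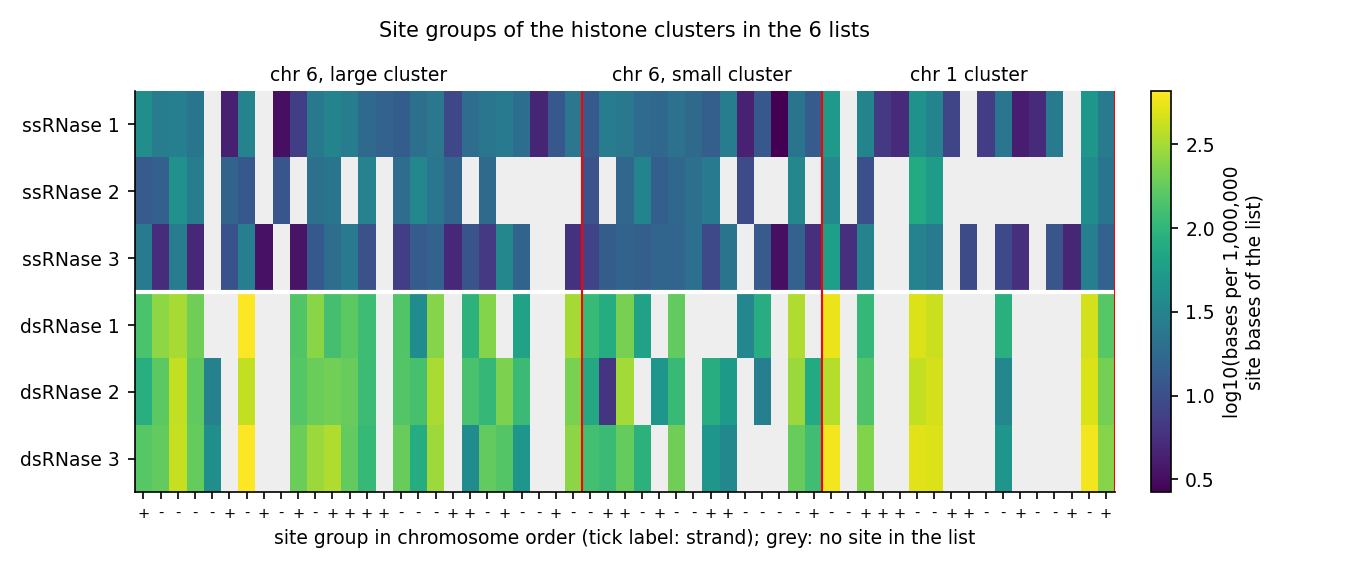
Bases per 1000000 site bases of the list (log10 colour scale) in the 57 site groups of the histone clusters (columns, in chromosome order, strand below) for the 3 ssRNase and 3 dsRNase lists (lines of the map). Grey marks a list without a site; most groups with sites in all lists are brighter in the dsRNase lists, and groups that are grey in all 3 dsRNase lists are the 19 with ssRNase sites only.

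The group with the most protected bases among those under 800 nt was on the minus strand at chr1:149812260-149812776, 517 nt long. It held 453, 227 and 245 nt of sites with ssRNase, against 406, 387 and 409 nt with dsRNase. As a share this was 44.4, 77.9 and 30.2 bases per 1000000 with ssRNase, against 493, 395 and 512 with dsRNase. The covered length was thus similar and the shares did not overlap. In the authors' merged list of both nucleases its core, chr1:149812294-149812776, is a single site of 483 nt with 27 replicate sites behind it, the longest merged site of the clusters.

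**Figure D3:**
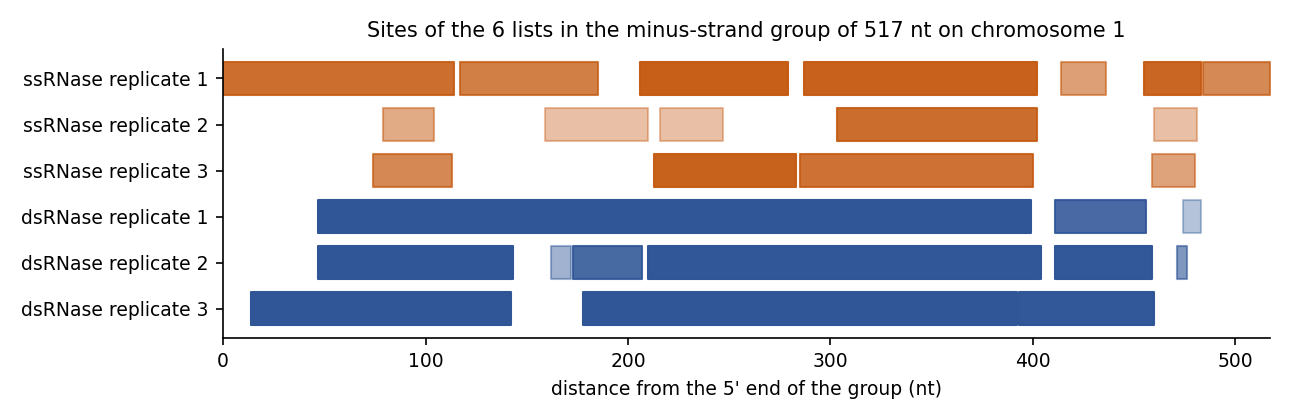
Sites of the 6 lists in the minus-strand group of 517 nt on chromosome 1, by distance from its 5' end (nt), with ssRNase above dsRNase. Bars are sites and darker bars have a higher score percentile within their list. In dsRNase replicate 1 there is 1 site of 352 nt where the other dsRNase lists and the ssRNase lists have several shorter ones.

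Shares did not overlap between nucleases in 31 groups, of which 3 (5.26% of the 57) were higher and 28 (49.1%) lower with ssRNase. Over all 114976 groups of the series, 13.4% were higher and 2.94% lower with ssRNase in this sense. On chromosome 6 the group with the most bases was on the minus strand at chr6:26055968-26056700. It held 320, 35 and 229 nt with ssRNase, against 536, 390 and 526 nt with dsRNase. Every dsRNase list was above every ssRNase list here even in bases, which was so in 3 of the 57 groups (5.26%) and in 0.241% of all groups of the series. The reverse was so in 4 of the 57 (7.02%) and in 20.2% of all. The plus-strand group at chr6:26104163-26104535 was another of the 3, with 75, 0 and 29 nt with ssRNase and 122, 149 and 153 nt with dsRNase. The minus-strand group at chr6:26031825-26032318 overlapped in bases, with 291, 127 and 224 nt with ssRNase and 266, 387 and 325 nt with dsRNase. The minus-strand group at chr6:27860518-27860957, at the end of the small cluster, held 229, 99 and 122 nt with ssRNase and 282, 283 and 146 nt with dsRNase.

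All 3 ssRNase lists and no dsRNase list had sites in 3 groups. The longest, on the minus strand at chr6:27805713-27806149, held 181, 59 and 162 nt with ssRNase and is listed with none in the dsRNase lists. The plus-strand groups at chr6:26045825-26045936 and chr6:26199845-26199933 held 44, 45 and 86 nt and 89, 47 and 40 nt with ssRNase. No group had sites in all 3 dsRNase lists and no ssRNase list. The only group without ssRNase sites, chosen here after its values were seen, lay on the minus strand at chr6:26043734-26043766 and had 29 and 33 nt in dsRNase replicates 2 and 3.

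Shares were compared between nucleases across the whole series in stranded windows of 10000 bp with limma, on log2(site bases per 1000000 + 20), where a site in at least 3 of 6 lists was required. Of 88 cluster windows (2 strands), 45 held a site and 32 were tested. At an adjusted p of 0.05, 23 of the 32 were called, against 33.6% of all 31432 windows. Of these, 22 were lower with ssRNase, against a background of 7.04%, and 1 was higher with ssRNase, against 26.6%. That window, on the minus strand at chr6:27800001-27810000, had no dsRNase site and passed the filter through the ssRNase lists alone. The median difference, ssRNase minus dsRNase, was -2.30 in the cluster windows and 0.43 over all windows tested. Scaling by the median of windows with sites in every list moved these medians to -1.57 and 0.59, so that cluster windows minus all windows gave -2.73 with the first scaling and -2.15 with the second. Over all windows, 8349 calls were higher and 2214 lower with ssRNase with the first scaling, and 11080 and 1145 with the second. With every list thinned to the same number of sites, 16 of 27 cluster windows were called, 1 higher and 15 lower with ssRNase, and the median difference was -2.63 in the clusters. Over all windows that setting gave a median of -0.21, with 660 calls higher and 969 lower with ssRNase, so that the direction of this median turned. Random thinning keeps the expected share of a list in the clusters. The unchanged direction of the cluster windows was therefore no separate check of that share. The number of calls rested on each of the ssRNase lists: it was 10, 4 and 3 of 29 without ssRNase replicates 1, 2 and 3, all lower with ssRNase, and 23 to 25 without a dsRNase list. These were 34.5%, 13.8% and 10.3% of the cluster windows tested, against 0.902%, 0.259% and 0.273% of all windows.

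The cluster window with the highest mean share was on the minus strand at chr1:149810001-149820000. Among all windows it ranked 1238 by its mean share with ssRNase and 32 with dsRNase. Its share was 83.6, 133 and 56.5 bases per 1000000 with ssRNase, against 913, 860 and 1001 with dsRNase, and the difference was -3.14 ± 0.29 (SE, limma adjusted p = 0.00459). Next came the minus-strand window at chr6:26030001-26040000, at rank 3876 with ssRNase and 86 with dsRNase. The window at chr6:26050001-26060000, minus strand, was at rank 11948 with ssRNase and 82 with dsRNase, and its difference of -3.74 ± 0.30 was the lowest of the clusters (limma adjusted p = 0.00449).

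The same fit with site groups in place of windows, added after the data had been seen, tested 40 cluster groups and called 27, against 28.4% of 36409 groups in the series. Of these, 26 were lower with ssRNase, with differences of -3.74 to -1.58 on the log2 scale, where 7.2% of all groups were. The filter admits groups with sites in the 3 ssRNase lists alone, and the group at chr6:27805713-27806149, was one of them and the only one called as higher with ssRNase, where 21.2% of all groups were (difference 0.98, limma adjusted p = 0.00974). Among groups with sites of both nucleases, 24 of 37 cluster groups were called, against 4.2% of 21646 groups. All 24 were lower with ssRNase, where 3.59% of all groups were, and none was higher, where 0.61% were. By cluster, 16 of 20 tested groups of the large chromosome 6 cluster were called as lower with ssRNase, 4 of 13 of the small one and 6 of 7 on chromosome 1. By strand, these were 9 of 17 plus-strand and 17 of 23 minus-strand groups. Without ssRNase replicates 1, 2 and 3 the calls came to 13, 3 and 6, or 36.1%, 8.33% and 16.2% of the cluster groups tested, against 1.07%, 0.193% and 0.378% of all groups.

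**Figure D4:**
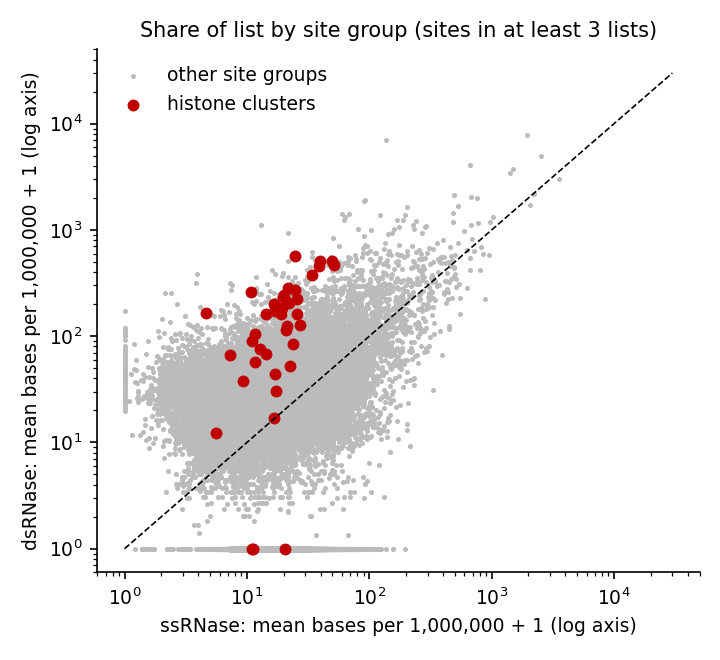
Mean share of each site group with sites in at least 3 lists, in bases per 1000000 site bases of the list plus 1 (log axes), with ssRNase on the horizontal and dsRNase on the vertical axis. Grey points are groups elsewhere, red points the 40 histone cluster groups and the dashed line marks equal shares; red points lie above the line except the 3 groups without a dsRNase site.

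The 18 groups named by rank on pooled bases included 6 on chromosome 1. The group at chr1:149783549-149785212, minus strand, had the most bases of all, with 522, 103 and 486 nt with ssRNase and 464, 348 and 481 nt with dsRNase (difference -2.92 ± 0.27, SE, limma adjusted p = 0.00524). The minus-strand group at chr1:149857734-149859504 held 497, 112 and 233 nt with ssRNase and 369, 475 and 477 nt with dsRNase (difference -3.18 ± 0.21, SE, limma adjusted p = 0.00489). These 2 groups held pairs of sites alike in length and score. In 3 lists, ssRNase replicates 1 and 3 and dsRNase replicate 3, a site of the first group had a counterpart of the same length and the same score exactly 74312 nt further on in the second group. In ssRNase replicate 1 the pair was chr1:149783549-149783602 and chr1:149857861-149857914. Equal length and score was found for 11 pairs of sites in different groups of the clusters, and no other distance occurred more than once.

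A further pair of chromosome 1 groups had equal scores as well. In 4 lists a site of the first group named above and a site of the group at chr1:149812260-149812776 had the same score although their lengths differed. Only sites with a high score in their list were compared, and only in this pair of groups. Equal scores at unlike lengths were not counted for other groups, so how usual they are is unknown. In dsRNase replicate 2 these were sites of 157 and 194 nt at percentile 98.5 of the list. Whether the same reads were counted in both places was not tested. Without the chromosome 1 cluster the share was 557 ± 133 bases per 1000000 in ssRNase lists against 4738 ± 261 in dsRNase lists (SD, n = 3 each). The ratio of dsRNase to ssRNase was 8.51, with an exact permutation p of 0.1. In the limma fit, 20 of 33 tested groups were called as lower with ssRNase, against 7.2% of all 36409 groups in the series.

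Within groups, the mean position of ssRNase sites lay nearer to the 5' end. This was measured after the data had been seen, in the 26 groups with sites in at least 5 lists and a span of 280 to 800 nt, with 0 for the 5' end and 100 for the 3' end of a group. The mean position of site bases was 41.4, 46.3 and 41.8 with ssRNase and 51.7, 52.0 and 50.9 with dsRNase. All ssRNase lists lay below all dsRNase lists, with means of 43.2 ± 2.72 and 51.5 ± 0.575 (SD, n = 3 each, exact permutation p = 0.1, the smallest possible). In 1045 groups elsewhere chosen in the same way the means were 50.8 ± 0.639 with ssRNase and 50.4 ± 0.411 with dsRNase (exact permutation p = 0.4). In ssRNase replicate 1, sites covered 73.5%, 78.2% and 74.9% of the first 3 deciles of the cluster groups and 37.4%, 39.5%, 40.2% and 41.2% of the last 4. In ssRNase replicate 3 they covered 35.8%, 36.4% and 33.2% of the first 3 deciles and 23.5%, 15.3%, 23.4% and 15.4% of the last 4. In ssRNase replicate 2, which had sites in 20 of the 26 groups, the ends were alike, with 9.56%, 15.4% and 11.9% of the first 3 deciles and 14.5%, 9.89%, 14.7% and 12.9% of the last 4, and the highest cover, 28.0%, was in the decile after the first 3. The dsRNase lists had no common slope. In dsRNase replicate 1 sites covered 48.7%, 32.3% and 21.9% of the first 3 deciles and 46.8%, 46.3%, 38.9% and 36.5% of the last 4, with the highest cover at the 5' end. In dsRNase replicate 2 they covered 41.6%, 37.0% and 34.9% of the first 3 deciles and 43.9%, 48.7%, 50.8% and 45.5% of the last 4. In dsRNase replicate 3 they covered 46.2%, 39.3% and 26.9% of the first 3 deciles and 41.5%, 41.5%, 46.3% and 42.4% of the last 4. The ends of a group are defined by its outermost sites and need not be the ends of a transcript.

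**Figure D5:**
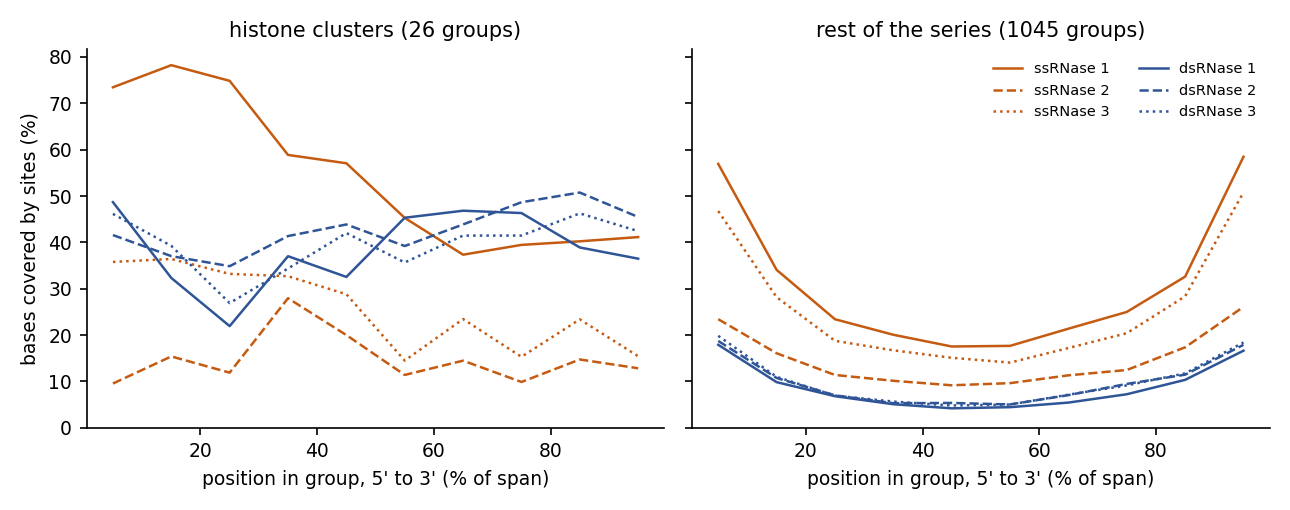
Share of bases covered by sites (%) along site groups from the 5' to the 3' end (% of the span, in deciles), for the 3 ssRNase and 3 dsRNase lists, in 26 histone cluster groups (left) and 1045 groups elsewhere (right). In the clusters ssRNase replicates 1 and 3 cover more of the 5' part than of the 3' part. The curve of ssRNase replicate 2 is highest just before the middle and has similar ends, and the curves elsewhere are nearly symmetric.

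The authors' merged list of both nucleases, in which overlapping replicate sites are joined, had 187 cluster sites of 293016. Both nucleases stood behind 83 of them (44.4%), against 12.0% over the whole list. Only ssRNase sites stood behind 67 (35.8%, against 83.4% overall) and only dsRNase sites behind 37 (19.8%, against 4.57% overall). Sites of all 6 lists stood behind 19 of them (10.2%, against 0.696% overall).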

How the data were processed

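The 3 ssRNase and 3 dsRNase replicate lists of protein-protected sites from HEK293T cells were used, each from a footprint library and its digestion control, per the labels. The submitters' processing notes name cutadapt 0.9.5, TopHat2 2.0.9 and build hg19. A duplex-specific nuclease step, which lowers abundant sequences, was applied to the libraries, per the labels' protocols, and its effect was not tested. The deposited lists name CSAR as the caller. The deposited score per site was used only for ranks within a list, since its scale is unknown. Positions in the deposited lists were read as 1-based and inclusive. No read counts were used, so the depth behind a site is unknown. The authors' 3 merged lists served as description only.

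The cluster intervals, gene lists and comparisons were chosen with earlier results of these data known. Sites overlapped where they shared at least 1 nt on a strand. Lists were compared by two-sided exact permutation tests, 3 against 3 (smallest p 0.1), and clusters with the rest by exact sign-flip permutation over 6 lists (smallest p 0.031), adjusted by the Benjamini-Hochberg method over 5 tests. Windows of 10000 bp and site groups were fitted over the whole series with limma 3.58.1 in R 4.3.3 (lmFit, eBayes) on log2(bases per 1000000 + 20), a site in at least 3 lists required, and p-values adjusted over all windows or groups. This scale understates differences of windows with low values. Tables, tests and figures were made with scipy 1.17.1, numpy 2.4.6, matplotlib 3.10.9 and pandas 2.3.3 under Python 3.11.15. The overlap and limma code was tested on simulated data. Named groups were the 10 with most bases among those with sites in all 6 lists, the next 8 by bases, and those with sites in all 3 lists of one nuclease and none of the other. Named windows were the 5 with the largest mean share and up to 10 called per direction, and named sites were the longest of each list. Histone gene names and sequences come from RefSeq (GRCh38.p14) and GENCODE release 29 (GRCh38). No coordinates were converted, so sites were not assigned to genes.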

Additional observations from a re-analysis of the deposited data

Results flagged for a closer look

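The mean position of site bases within cluster groups was singled out because the clusters differed from the rest of the series in opposite directions with the 2 nucleases. Cluster groups minus groups elsewhere gave -8.70, -5.08 and -9.16 points of the span in the ssRNase lists, towards the 5' end, and 1.75, 1.37 and 0.244 points in the dsRNase lists, towards the 3' end. The difference between these effects, ssRNase minus dsRNase, was -8.77 points. Its exact permutation p was 0.1, the smallest that 3 lists against 3 allow. The result was singled out because the 2 nucleases had opposite signs in every list. That choice fixed this p in advance, so it is no test of the difference. The groups were defined from the sites of all lists together, and their span was chosen after the data had been seen. The cause was not tested.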

How the results depend on the processing

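Of 123 alternative values, 115 were counted as unchanged. For tests this meant the same direction and the same side of a p of 0.05, whatever the size. For counts of windows and groups it meant a value near the main count. Tests of 3 lists against 3 cannot give a p under 0.1, so for them only the direction could change. The ratio of cluster site numbers, ssRNase over dsRNase, was 0.901 and ran from 0.661 to 1.15 when 1 list at a time was left out, and it turned above 1 only without ssRNase replicate 2. With equal numbers of sites per list it was 0.160, and the calls were 16 windows. The 23 called windows ranged from 3 to 25 when 1 list at a time was left out, with 10, 4 and 3 without ssRNase replicates 1, 2 and 3 (0.902%, 0.259% and 0.273% of all windows) and 23 to 25 without a dsRNase list. Without an ssRNase list, 21 to 23 of the 29 cluster windows tested had an unadjusted p under 0.05, and this was not counted over all windows. For site groups, 27 with all lists, the calls ranged from 3 to 29, with 13, 3 and 6 without ssRNase replicates 1, 2 and 3 (1.07%, 0.193% and 0.378% of all groups). Same-numbered lists had correlations of deviations of 0.0174, -0.0631 and -0.0336, and lists of unlike number had -0.1004 to 0.0926. With 3 lists a nuclease these values cannot settle whether the replicate numbers pair the lists. With a replicate block the fit called 0 cluster windows and 0 windows in the series. An unadjusted p under 0.05 was found for 24 cluster windows. For site groups it called 22 of 40 in the clusters, all lower with ssRNase, against 1166 of all 36409 groups. Each of these 22 had a limma adjusted p of 0.0499, just under the threshold of 0.05. The cause of the loss of window calls was not tested. The position within groups kept its direction under every alternative run (-6.77 to -12.9). At an overlap of at least 50%, recurrence with the other nuclease was 14.2 percentage points above the rest, against 26.8. Joining at 300 or 2000 nt gave 66 or 48 groups, against 57. Read depth is unknown, so sites that only a longer list could hold cannot be told apart from sites that differ between nucleases.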

Other observations

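Some site groups in the clusters lay head to head, with a minus-strand group starting close to the start of a plus-strand group. This arrangement, with at most 1000 nt between the 5' ends, was found for 7 pairs, so that 24.6% of the 57 groups belonged to one, against 1.17% of the 114919 groups elsewhere. Among groups with sites in at least 5 lists there were 2 pairs. They took in 12.9% of the 31 such groups, against 0.455% of 7914 elsewhere. Many histone H2A and H2B genes are arranged as divergent pairs, which is background and was not read from these lists. The distance between the groups of a pair was 203 to 842 nt, with a median of 262 nt, and 6 of the 7 pairs lay on chromosome 6. The members of a pair were not always alike in the limma fit of site groups. The minus-strand group at chr6:26123764-26124148 and its plus-strand neighbour at chr6:26124400-26124883 were both lower with ssRNase (differences -2.74 and -2.37, limma adjusted p = 0.005 and 0.009). The minus-strand group at chr6:26199053-26199498 was lower with ssRNase (difference -2.90, limma adjusted p = 0.005), while its plus-strand neighbour at chr6:26199845-26199933 had ssRNase sites only (difference 0.57, limma adjusted p = 0.075). The minus-strand group at chr6:27805713-27806149, which had ssRNase sites only, had a plus-strand neighbour at chr6:27806353-27806796 with sites in 2 dsRNase lists. The difference between members of a pair was not tested. These pairs were looked for after the data had been seen.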
